A study of Equus caballus with 93 samples.

Results

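The 150 genes described here come from the cells of horse synovial fluid. Their mean over all horses was within a set limit of its starting level 2 weeks after joint surgery and was lower over the following weeks. At week 2, 137 of the 150 were already below week 0, and in the hydrogel arm the median change was -0.53 log2. They were chosen from the measured values. In the 70 libraries whose log2 CPM (a read count scaled to library size) had an SD over genes of 2 or more, the mean of each week was taken over both arms. Genes were kept if their mean log2 CPM was at least 1, week 2 differed from week 0 by less than 0.5 in either direction, and the mean of weeks 4 to 10 was at least 0.5 below week 0. Of the 15838 genes in the table, 11818 had a mean of at least 1, 7853 of those also passed the week 2 condition, and 495 met all conditions. The 150 with the lowest late change were taken and are called late-falling genes below, and 345 more met the conditions. A step of 1 on the log2 scale is a 2-fold difference.

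The study followed 16 horses, 2 to 5 years old, in which a bone and cartilage fragment was created surgically in one middle carpal joint as a model of osteoarthritis. All horses had the surgery and were exercised on 5 days a week from week 2, so these are shared by both arms. At week 2 the operated joint received 2 mL of saline (Control, 8 horses) or 2 mL of 2.5% injectable polyacrylamide hydrogel (iPAAG, 8 horses), and fluid was sampled at weeks 0, 2, 4, 6, 8 and 10. Week 0 came before surgery, and the order of the injection and the week 2 sampling is not in the labels. Surgery, exercise, the injection at week 2, repeated sampling and elapsed time cannot be told apart in a change over weeks. The sham-operated joints were not analysed here.

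Synovial fluid is the lubricating fluid of the joint cavity. In a healthy joint it holds few cells, mainly macrophages and lymphocytes, and after injury or during inflammation other white blood cells, neutrophils among them, enter it from the blood and the synovial lining. A bulk measurement adds up the RNA of all of them, and the counts are scaled to library size. A lower level can thus mean fewer cells of a type, less RNA per cell or more RNA of other genes. These cannot be told apart here. Genes appear in the table under Ensembl identifiers, which the files do not pair with names. Of these identifiers, 0 matched an entry in the available RefSeq gene table, which describes a different assembly. The functions of the late-falling genes, the cell types that express them and the labelled cell source could therefore not be checked, no sequence could be looked up, and 2 members are given by identifier. These are ENSECAG00000001741, which had the lowest late change, and ENSECAG00000023721, which had the highest mean level.

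The 93 libraries held 1737741 to 39916655 reads in genes. In 23 of them, called flat here, the SD over genes was 1.20 to 1.90, and they held 1737741 to 12597216 reads. The other 70, called wide, had SDs of 2.19 to 4.21 and 6076026 to 39916655 reads. Wide libraries numbered 8, 7, 7, 6, 7 and 6 in Control horses at weeks 0 to 10 and 7, 7, 3, 4, 6 and 2 in iPAAG horses. The values below come from wide libraries unless flat ones are named, since the genes were chosen in the wide ones. Among wide libraries, median depth was 29443605 reads at week 0 and 21489335 over weeks 4 to 10, and the part of depth in the results was not tested.

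The late-falling genes did not leave their week 0 level in a single step. Over the 6 sampling weeks in order, their median level over genes was 3.06, 2.80, 2.91, 2.17, 1.92 and 1.54 log2 CPM. These levels are the values that chose the genes and are given as a description. The median change from week 0 was -0.34 at week 2 and -0.18 at week 4, then -0.81 at week 6, -1.09 at week 8 and -1.43 at week 10. Over all 11818 genes with a mean of at least 1, the median change lay between -0.04 and -0.01 at these weeks. The late-falling genes at least 0.5 below week 0 numbered 33, 128, 145 and 144 at weeks 4, 6, 8 and 10. Of all genes with a mean of at least 1, the shares were 16.1%, 13.8%, 17.3% and 21.1%. For 104 genes week 6 was the first such week, for 33 it was week 4 and for 13 week 8. Week 10 was the lowest of the 6 weekly means for 103 genes and week 8 for 40, while week 4 was the highest for 43. In the pooled means, the step after week 2 was therefore mostly a step after week 4. The arms differed in this: in iPAAG horses the median change was -0.53, -0.23, -0.60 and -1.58 at weeks 2, 4, 6 and 8. Their weeks 4 and 6 rest on 3 and 4 libraries.

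**Figure D1:**
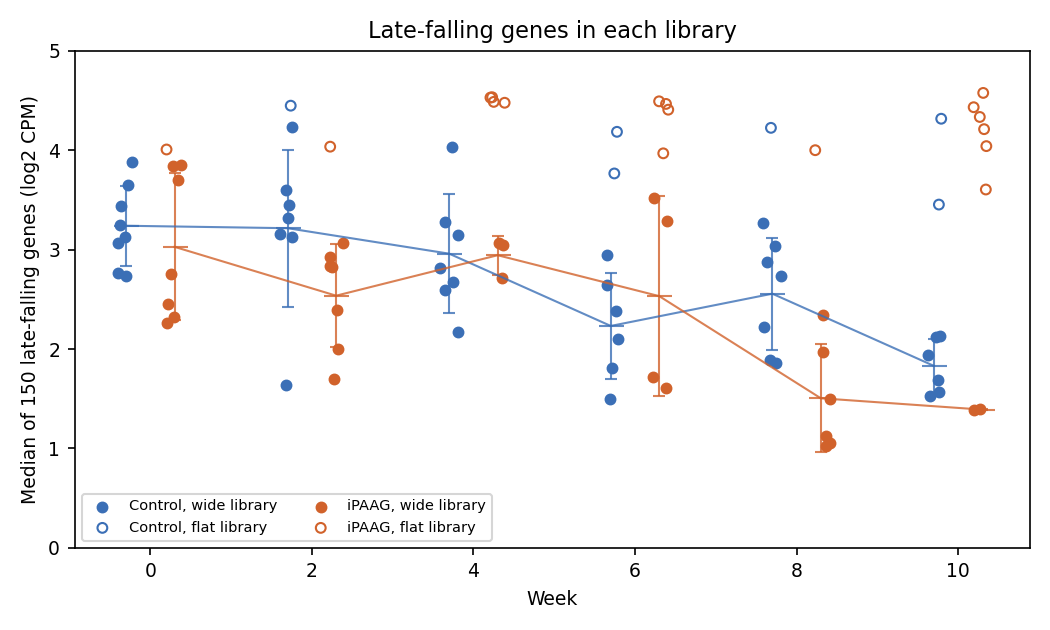
Median log2 CPM of the 150 late-falling genes in each library (y axis) by week (x axis), with Control in blue and iPAAG in orange. Filled points are wide libraries, open points flat ones, and the lines and bars are the mean ± SD of the wide libraries. Wide libraries run from 2.26 to 3.88 at week 0 and from 1.39 to 2.13 at week 10, and all flat libraries lie between 3.45 and 4.58.

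The medians of single libraries are the same values, so their overlap with week 0 is set in large part by the rule and is given as a description. The median over the 150 genes ranged from 2.26 to 3.88 in the 15 wide libraries of week 0, with a middle value of 3.13. At week 2 it ranged from 1.63 to 4.23 (middle value 3.00, 14 libraries) and at week 4 from 2.17 to 4.03 (2.93, 10 libraries), so both weeks overlapped week 0 widely. At week 6 it ranged from 1.50 to 3.52 (2.24, 10 libraries), at week 8 from 1.03 to 3.27 (1.97, 13 libraries) and at week 10 from 1.39 to 2.13 (1.63, 8 libraries). Below the lowest week 0 value lay 3 of 14 libraries in week 2 and 1 of 10 in week 4, then 5 of 10 in week 6, 8 of 13 in week 8 and 8 of 8 in week 10. Together the 150 genes took a median of 0.313%, 0.221%, 0.257%, 0.176%, 0.158% and 0.149% of the reads of a library at weeks 0, 2, 4, 6, 8 and 10. The median share was thus lower at week 2 than at week 4.

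Some members lay close to the week 2 limit of the rule, and the last ones lay close to the cut at 150 genes. The late limit of -0.5 was further off, since the highest late change was -0.72. At week 2, 137 of the 150 were below week 0 and 13 above, and 44 were between 0.4 and 0.5 below, so "falling only after week 2" holds for the pooled mean within the limit of 0.5 and not as an absence of change. Just outside that limit, 53 genes changed by 0.5 to 0.6 at week 2, 51 of them downward, with a late change at least as low as the last member. The late change ran from -1.65 in the first gene through a median of -0.86 to -0.72 in the last, and the genes ranked 151 and 152 had -0.72 and -0.71. Mean levels ran from 1.01 to 7.88 log2 CPM, with 51 genes below 2, 83 between 2 and 5 and 16 above 5. The median late change in these 3 ranges was -0.88, -0.85 and -0.80. The genes had a median of 117 reads per wide library, and 35 of the 10500 values were at 0 reads, in 22 genes. A mirror rule, with a late rise of at least 0.5, was met by 187 genes, against the 495 that met the rule for a fall. With each library centred on its median, 362 genes met the rule for a fall, and the mirror rule was not counted in that setting.

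In the limma fit over all 15838 genes, the mean of weeks 4 to 10 minus week 0 was below 0 for 150 of 150 late-falling genes and passed an adjusted p of 0.05 for 132, where 22.6% of all genes were called lower. This contrast is the one that chose the genes, so the count is a description. The median fitted change was -0.89, against -0.06 over all genes, with a median SE of 0.28. The wide libraries themselves moved between these weeks. With the arms averaged, the mean of their median log2 values over weeks 4 to 10 minus that at week 0 was -0.13. With each library centred on its median, the genes' median late change was -0.76. The same centring took their median week 2 change in the pooled means from -0.34 to -0.18.

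ENSECAG00000001741 was a low-level gene with a median of 116 reads per library at week 0 and 19 at week 10. In Control horses its log2 CPM at week 0 ranged from -0.71 to 3.67 (median 2.40, 8 libraries), at week 2 from 0.56 to 3.77 (2.46, 7 libraries) and at week 4 from 0.37 to 3.57 (1.54, 7 libraries). In the same arm it ranged at week 6 from -2.57 to 1.47 (0.29, 6 libraries), at week 8 from -0.57 to 1.22 (0.51, 7 libraries) and at week 10 from -3.57 to 0.71 (-0.07, 6 libraries). In iPAAG horses it ranged from 0.54 to 3.60 at week 0 (2.16, 7 libraries), from -0.03 to 2.78 at week 2 (1.42, 7 libraries), from 1.69 to 2.53 at week 4 (1.88, 3 libraries) and from -0.30 to 2.34 at week 6 (0.73, 4 libraries). At week 8 the iPAAG libraries ranged from -0.79 to 0.99 (-0.38, 6 libraries), and the 2 wide libraries of week 10 were at -1.03 and -0.10. The iPAAG libraries of week 4 lay within the range of week 0, and those of week 6 overlapped it. All 13 libraries of week 8 and all 8 of week 10 lay below the week 0 median, and at weeks 6 to 10 the Control libraries overlapped those of week 0 through 1 low week 0 library. The fitted late change over both arms was -1.62 ± 0.35 (SE), and the gene was lower in 11 of the 15 horses with a wide week 0 library. Since the gene was picked for the lowest late change in these libraries, its late values are a description and may overstate the fall.

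ENSECAG00000023721 was the most abundant member, with a median of 9430 reads at week 0 and 3516 at week 10. Its log2 CPM in Control horses ranged from 8.27 to 9.74 at week 0 (median 8.62, 8 libraries), from 7.13 to 9.27 at week 2 (8.93, 7 libraries) and from 7.63 to 9.21 at week 4 (8.13, 7 libraries). In the same arm it ranged from 6.48 to 8.58 at week 6 (6.94, 6 libraries), from 6.80 to 7.665 at week 8 (7.29, 7 libraries) and from 6.78 to 8.01 at week 10 (7.64, 6 libraries). In iPAAG horses it ranged from 7.52 to 9.59 at week 0 (7.97, 7 libraries), from 7.12 to 8.10 at week 2 (7.66, 7 libraries), from 8.32 to 8.73 at week 4 (8.53, 3 libraries) and from 6.72 to 8.92 at week 6 (7.88, 4 libraries). It then ranged from 6.24 to 7.42 at week 8 (6.45, 6 libraries) and was 6.63 and 7.66 at week 10. The iPAAG median of week 6 was thus close to that of week 0, while the Control median of week 6 was lower than all Control libraries of week 0. The Control libraries of weeks 8 and 10 and the iPAAG libraries of week 8 did not overlap those of week 0 in the same arm. The fitted late change was -1.05 ± 0.19 (SE), and 14 of 15 horses were lower, with horse 3 the exception at 1.10. As a member, this gene was chosen for a low late change in these libraries. Its late change, its lack of overlap with week 0 and the count of horses are therefore a description.

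**Figure D2:**
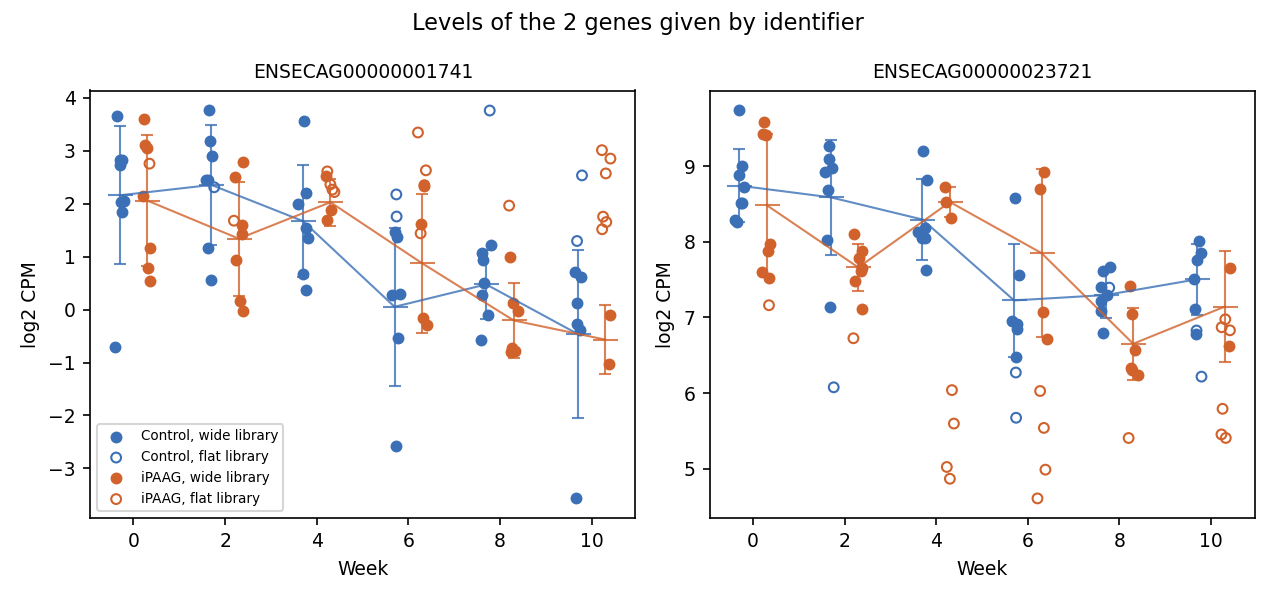
Log2 CPM (y axis) of the 2 late-falling genes given by identifier, in each library by week (x axis). Filled points are wide and open points flat libraries of Control (blue) and iPAAG (orange) horses, with the mean ± SD of the wide ones. Flat libraries lie among or above the wide ones for ENSECAG00000001741 and mostly below them for ENSECAG00000023721.

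The rule averaged over weeks 4 to 10 and set no condition on the order among them. The means of weeks 4 and 10 nonetheless entered that average from the same libraries, in unequal numbers, so the comparison of these 2 weeks is not independent of the choice of genes and is given as a description. From week 4 to week 10, with the arms averaged, 79 of the 150 late-falling genes were called lower and 0 higher by limma (adjusted p below 0.05 over all genes), where 10.5% of all genes were called lower. In that comparison 139 of the 150 had a value below 0, with a median of -1.33 and a median SE of 0.49, against a median of 0.03 over all genes. The difference was -2.45 ± 0.61 (SE) for ENSECAG00000001741 and -1.15 ± 0.33 (SE) for ENSECAG00000023721, and both were among the 79. The iPAAG side rests on 2 wide libraries at week 10 and 3 at week 4. Without horse 5, which leaves the iPAAG arm 1 library at week 10, the fit called 27 of the 150 lower and 1.73% of all genes lower, and the lone library is then assumed to vary like the other groups. In that fit neither of the 2 genes was called, with differences of -2.15 and -0.83.

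In Control horses, with 7 libraries at week 4 and 6 at week 10, the median difference between these weeks was -1.19, and 136 of the 150 genes were lower, where 56.4% of all genes with a mean of at least 1 were lower. In iPAAG horses the median was -1.45 with 134 genes lower, where 43.4% of all genes with a mean of at least 1 were lower. Wide libraries at both weeks were available for 5 horses, all in the Control arm. Their median differences over the 150 genes were -0.01 in horse 1, -1.69 in horse 2, -1.02 in horse 10, and -0.79 in horses 15 and 16. The number of genes lower was 76 in horse 1, where 48.2% of all genes with a mean of at least 1 were lower. In the other 4 horses it was 121 to 138, where between 52.1% and 61.1% of all such genes were lower.

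The arms were pooled by the rule, which set no condition on the difference between them, although the same libraries entered it, in unequal numbers per arm. In Control horses the genes' median change from week 0 was -0.05, -0.27, -0.97, -0.78 and -1.39 at weeks 2, 4, 6, 8 and 10. In iPAAG horses it was -0.53, -0.23, -0.60, -1.58 and -1.65. At week 2 the genes split between 88 lower and 62 higher in Control horses, and 143 were lower in iPAAG horses. The median week 2 change over all genes with a mean of at least 1 was 0.01 in Control and -0.03 in iPAAG horses. Over weeks 4 to 10 the change was below 0 for 149 genes in Control horses, with a median of -0.80, and for 150 in iPAAG horses, with a median of -0.98. The rule chose the genes for a low late change in these same libraries, so both counts are a description and no replication between arms. The share of all genes was not computed for them.

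**Figure D3:**
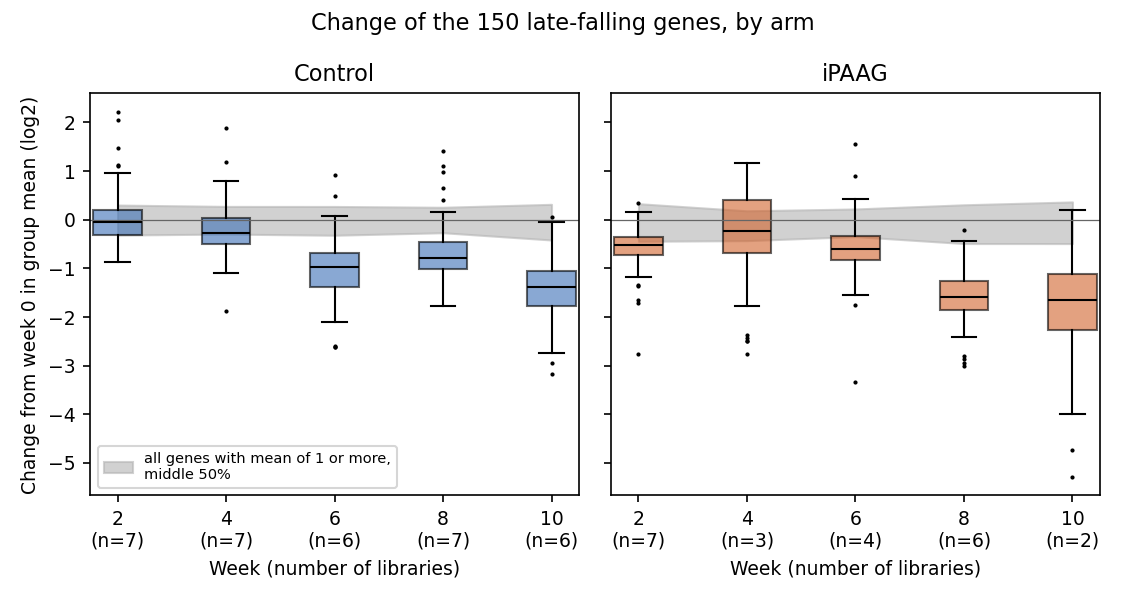
Change in group mean from week 0 (y axis, log2) of the 150 late-falling genes at each week (x axis, with the number of wide libraries) in Control (left) and iPAAG horses (right). Boxes hold the middle 50% of the genes with the median as a line, points beyond the whiskers are single genes, and the grey band is the middle 50% of all genes with a mean of at least 1. Medians go from -0.05 at week 2 to -1.39 at week 10 in Control and from -0.53 to -1.65 in iPAAG horses.

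None of these differences between arms passed limma's test for any gene in this fit. For the change from week 0 to weeks 4 to 10, 0 of the 150 late-falling genes and 0% of all genes were called, with 3 of the 150 and 1203 of all genes at an unadjusted p below 0.05. The median difference, iPAAG minus Control, was -0.10, with 91 genes below 0, where 63.9% of all genes were below 0. Its sign depended on the processing: it was 0.47 with all 93 libraries (125 genes above 0), 0.23 with quantile normalisation (103 above) and 0.15 with library spread as a covariate (99 above). The median SE was 0.55, and 112 of the 150 differed by less than their own SE. For the change from week 2, the week of injection, the median difference was 0.44, with 108 genes above 0, where 40.2% of all genes were above 0, and a median SE of 0.56. It was larger with all 93 libraries (1.13, 141 above 0), with quantile normalisation (0.73) and with library spread as a covariate (0.71). Of the 150, 0 were called, where 0% of all genes were called, and 12 of the 150 and 1682 of all genes had an unadjusted p below 0.05. At week 0 the median difference was -0.17, with 116 genes below 0, where 40.9% of all genes were, and with 0 of the 150 and 0% of all genes called and 0 of the 150 and 727 of all genes at an unadjusted p below 0.05. A difference between arms of 0.5 is about the size of these SEs and was not detectable for most of these genes.

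The change at week 2 was compared between arms after the values had been seen. The median difference was -0.46, with 124 genes lower in iPAAG horses, where 54.1% of all genes were lower, and a median SE of 0.66. None of the 150 was called by limma, and 0% of all genes were, with 9 of the 150 and 632 of all genes at an unadjusted p below 0.05. The smaller week 2 level in iPAAG horses enters the difference from week 2 given above, since both use the same week 2 libraries.

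**Figure D4:**
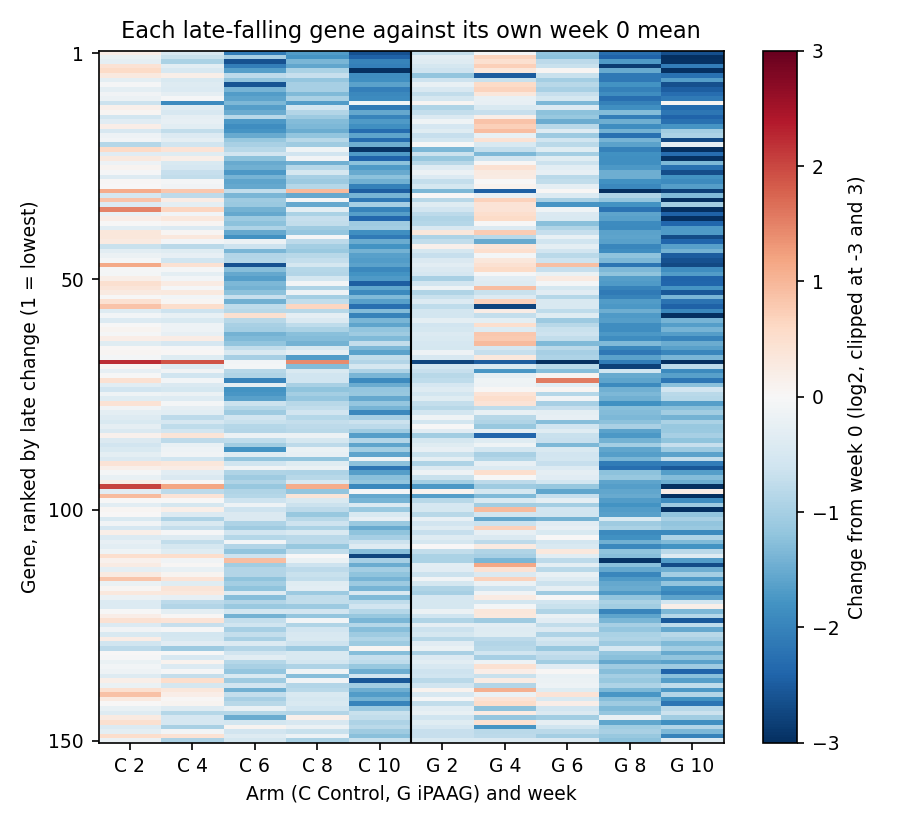
Change of each late-falling gene from its week 0 mean in the same arm, with genes as rows ranked by late change and weeks as columns, Control (C) left of the line and iPAAG (G) right of it. Blue is lower and red higher on the log2 scale, clipped at -3 and 3. Week 10 is below 0 for 149 genes in Control and 147 in iPAAG horses, while at week 4 the counts are 110 and 91. Both weeks entered the choice of the genes.

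Horses differed among themselves. In the 15 horses with a wide week 0 library, the median late change over the 150 genes was below 0 in 13, with a middle value of -0.69. In Control horses all 8 medians were below 0, from -1.49 in horse 10 to -0.08 in horse 9. In iPAAG horses 5 of 7 were below 0, from -2.03 in horse 6 to 1.08 in horse 3, and horse 7 was at 0.02. The genes were chosen for a low late change in these same libraries, so the numbers of horses below 0 are a description. Over all genes with a mean of at least 1, the horse medians ran from -0.20 in horse 6 to 0.10 in horse 11. Horses 3, 6, 7 and 9 had a single wide library after week 2, at weeks 6, 8, 8 and 4. Of the 150 genes, 3 were lower in all 15 horses and 78 in at least 12. The share of all genes was not computed for these 2 counts, which also follow in part from the choice of genes. At week 2 the horse medians were above 0 in 5 of 7 Control horses, with horses 2 and 9 at -0.68 and -2.43, and below 0 in 6 of 7 iPAAG horses, with horse 3 at 0.71.

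**Figure D5:**
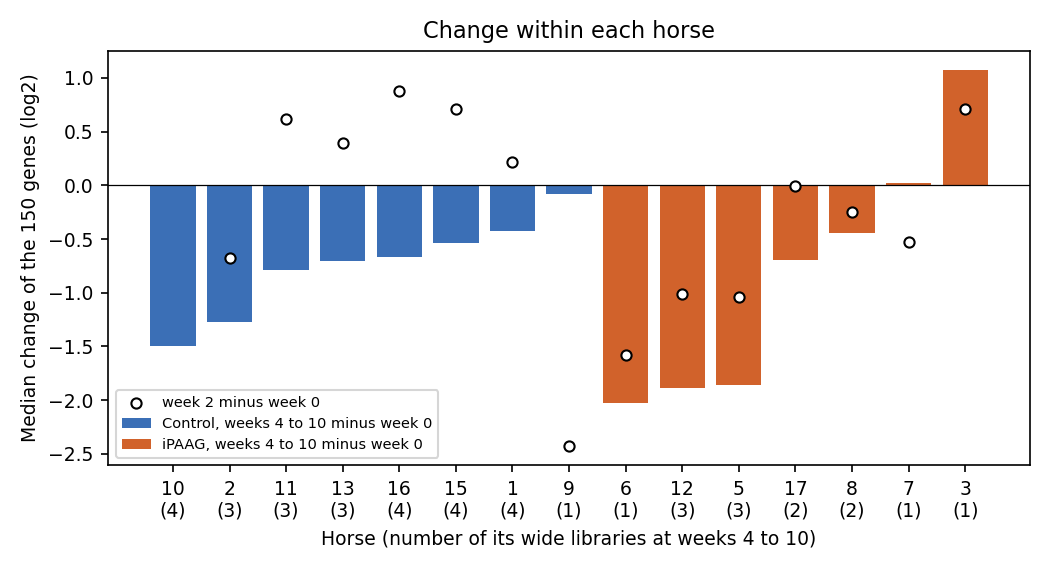
Median change over the 150 late-falling genes (y axis, log2) within each horse with a wide week 0 library (x axis, with the number of its wide libraries at weeks 4 to 10). Bars are weeks 4 to 10 minus week 0 in Control (blue) and iPAAG (orange) horses, open circles week 2 minus week 0. Bars are below 0 in 13 of 15 horses, and circles in 8 of 14. The genes were chosen in these same libraries.

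The late-falling genes varied together within groups. After the mean of each arm and week was removed, the median Pearson r between pairs of the 150 genes over the 70 wide libraries was 0.41, and 35.3% of pairs had r above 0.5. Over all pairs of genes with a mean of at least 1 the median was 0.02, with 4.0% above 0.5. The first principal component of these deviations held 39.1% of the variance, and 147 of the 150 genes had the same sign on it. All pairs share the same libraries, depth and scaling, and the same values chose the genes, so this is a description. The rule also favours genes that vary: their median SD within arm and week was 0.94 at week 0 and 0.61 at week 10, where it was 0.43 and 0.29 over all genes with a mean of at least 1.

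The gene ranked 68 had the lowest difference between arms in the late change. It had values from -5.86 to 5.46 log2 CPM in Control horses and from -5.61 to 7.42 in iPAAG horses at week 0, that is, from 0 to 5133 reads. The difference was -3.71 ± 1.84 (SE, adjusted p = 0.657 by limma). It was singled out after its values had been seen.

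Flat libraries held these genes at higher levels than wide ones. In the 20 flat libraries of weeks 4 to 10, the median over the 150 genes ranged from 3.45 to 4.58, all above the wide week 0 middle value of 3.13. In the 3 flat libraries of weeks 0 and 2 it was 4.01, 4.04 and 4.45. Gene by gene, the mean of the late flat libraries was above that of the late wide ones for 133 of 150 genes, by a median of 1.90. This went with level: the median difference was 2.67 for the 51 genes with a mean below 2, 1.68 for the 83 between 2 and 5, and -0.39 for the 16 above 5. Over all genes in the same ranges the medians were 2.17, 0.28 and -1.25. With all 93 libraries in the model, 34 of the 150 (22.7%) were called lower over weeks 4 to 10, with a median of -0.33, where 21% of all genes were called lower, so their share was near that of all genes. From week 4 to week 10, 25 of the 150 (16.7%) were called lower, with a median of -0.56, where 4.03% of all genes were. Flat libraries made up 15 of 30 iPAAG libraries and 5 of 31 Control libraries of weeks 4 to 10, so their share differs between arms and weeks, and their part in the arms' values was not tested beyond these counts.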

How the data were processed

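Per the labels' protocols, cells were spun down from synovial fluid of the operated joint and total RNA was sequenced with a stranded low-input kit. The submitters' processing notes name STAR 2.7.10b, EquCab3.0 and limma 3.62.2. For read counting, use of strand, annotation release and gene filter the tools were not given in the sources used here, so overlapping or near-identical genes are uncertain. The authors deposited 1 table of log2 CPM from voom. Its values are whole reads plus 0.5 over a scaled library size, and 100.0% of the recovered values were whole within 0.05 reads. Reads were amplified by PCR and do not count molecules.

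Groups, weeks and horse numbers come from the labels. Each group mean is over libraries of different horses, and same-numbered libraries come from the same horse. Their deviations from group means correlated at 0.20 on average within horses and -0.01 between horses (genes with a mean of at least 1). limma 3.58.1 in R 4.3.3 fitted 12 arm-by-week means to the 70 wide libraries of all genes, with horse as a random block (consensus correlation 0.09), a variance trend and Benjamini-Hochberg adjustment at 0.05. Reads of 15838 genes were also simulated, with 200 genes changed by 1 on the log2 scale after week 2. The late change recovered 100.0% of the 200 with 9 false calls. Recovery for genes with the spread and correlation of the late-falling genes was not tested. Python 3.11.15, numpy 2.4.6, pandas 2.3.3 and matplotlib 3.10.9 gave the other values and plots.

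The members and lists were chosen with earlier results of these data known. The rule for genes given by identifier was the member with the lowest late change and the member with the highest mean. The 22 gene lists could not be tested without symbols, and 4 identifiers were left out by the rule. Alternatives were all libraries, library spread as a covariate, median centring, quantile normalisation, a filter on low genes, 2 added reads, other treatments of horse, and leaving out each horse.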

Additional observations from a re-analysis of the deposited data

Results flagged for a closer look

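Of 34 groups of 4 to 10 values examined, 3 held a value far from the others, where chance flags about 1 in 20 groups. In Control horses at week 2, the median over the 150 late-falling genes was 1.63 log2 CPM in horse 9 and 3.12 or more in the other 6 wide libraries. ENSECAG00000001741 was at -0.71 log2 CPM in Control horse 1 at week 0, with 14 reads, where the next library was at 1.84. The same gene was at -3.57 in Control horse 11 at week 10, with 1 read, where the next was at -0.39. Its late change was -1.86 without horse 1 and -1.44 without horse 11, beside -1.62 with both. No difference between arms was flagged.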

How the results depend on the processing

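Numbers of late-falling genes called (limma, adjusted p below 0.05) stayed within 1.5 times the values given in the report under library spread as a covariate, median centring, quantile normalisation, the filter on low genes, 2 added reads, no replicate block and horse as a fixed block. In the fit without the replicate block 127 were called over weeks 4 to 10 and 74 from week 4 to week 10. Of all 15838 genes, 3351 and 1416 were called lower in that fit. With the fixed block the counts were 111 and 64, beside 3180 and 1369 of all genes. The block changed no call of the 2 genes given by identifier. The arm difference at week 0 could not be fitted with the fixed block. With all 93 libraries the 2 counts were 34 (22.7% of the 150, beside 21% of all genes called lower) and 25 (16.7%, beside 4.03%). Leaving out each horse gave 99 to 138 over weeks 4 to 10, 27 to 84 from week 4 to week 10, and 0 in each comparison of the arms. The median arm difference in the late change, -0.10, ranged from -0.32 to 0.12 without 1 horse, above 0 without horses 1, 6 and 12. That from week 2, 0.44, ranged from 0.23 to 0.72, that at week 0, -0.17, from -0.32 to -0.03, and that in the week 2 change, -0.46, from -0.87 (without horse 9) to -0.28. With all 93 libraries these 4 medians were 0.47, 1.13, -0.06 and -0.53. The cause of these differences was not tested. For ENSECAG00000023721, the arm difference in the late change went from 0.23 to -0.47 with all libraries, and that from week 2 from 0.91 to -0.16. Leaving out 1 horse turned it to -0.00304 (horse 3), and turned that of ENSECAG00000001741 from 0.20 to -0.06, -0.16 and -0.08 (horses 7, 11 and 17). Its week 0 difference of -0.10 became 0.11, 0.04, 0.11 and 0.15 without horses 7, 8, 11 and 17. Over all horses left out in turn, the late arm difference ranged up to 0.68 for ENSECAG00000001741 and 0.50 for ENSECAG00000023721, and the week 0 difference of ENSECAG00000001741 down to -0.51. None of these had been called. The choice of genes itself was sensitive: the rule repeated kept 13 of the 150 with all libraries, 99 with median centring, 85 with quantile normalisation, 134 with 2 added reads, 64 in Control and 46 in iPAAG horses alone, and 100 to 138 without 1 horse.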
